A study of Mus musculus with 37 samples.

Results

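The genes described here encode basement membrane nidogens and laminins with their partner proteoglycans: Nid1, Nid2, the laminin chains Lama2, Lama4, Lama5, Lamb1, Lamb2 and Lamc1, perlecan (Hspg2) and agrin (Agrn). They were chosen by name, as the rows of the expression table whose mouse Ensembl identifier maps to one of these symbols. All 10 were found among the 51123 gene identifiers of the table, and all 10 reached the expression filter of both sets of libraries.

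The basement membrane is a thin sheet of extracellular matrix on which epithelial and endothelial cells rest and which wraps muscle, fat and nerve cells. Laminins are trimers of an alpha, a beta and a gamma chain that assemble into a network at the cell surface, and the nidogens Nid1 and Nid2 bind the laminin gamma chain and link this network to collagen IV. Perlecan and agrin carry heparan sulfate chains and tie the laminin network to growth factors and to dystroglycan. In bone marrow, stromal and vascular cells are known to make laminins, among them the Lama4 and Lama5 chains.

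RNA was sequenced from cultured mouse bone marrow (BM) and osteosarcoma cells in 37 libraries that form 2 sets, each analysed against its own control BM. Single knockout (SKO) cells come from mice in which Osx1-Cre, active in osteoblast progenitors, deletes Trp53, and double knockout (DKO) cells from mice in which it deletes both Wwox and Trp53. Both models also carry the Cre-activated Rosa26-LSL-tdTomato reporter. BM was taken from young mice without tumors (yBM) and from tumor-bearing mice (BMT), and tumor cells were grown from the primary tumors. Set 1 holds control BM (n = 4), DKO yBM (n = 6, of which 3 from mice of 1.5 months and 3 from mice of 4 months), DKO BMT (n = 3) and DKO tumor (n = 3). Set 2 holds 7 groups with n = 3 each, namely control BM and the yBM, BMT and tumor of both SKO and DKO mice. The sources describe the control mice variously as WT, Cre-negative or Cre-positive WT. The cells were cultured before RNA was prepared, until tdTomato-positive cells were dominant, so the libraries describe cultured cells and not marrow or tumor tissue. For set 1 the mouse numbers in the methods match the libraries, although the sources differ on whether BMT and tumor came from the same mice. For set 2 nothing ties the libraries of a group to different mice, so a p-value given there covers the spread among libraries, which may be technical.

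The deleted genes were compared with the labels first, taking 50% of the mean of the set's control BM as the limit. Trp53 was below it in every knockout library except those labelled DKO BMT 2 and 3 of set 1. In set 1, Wwox was above this limit in the libraries labelled DKO yBM 2 to 6, DKO BMT 1 and DKO tumor 1, while control 3 was itself at 32% of the control mean. In set 2 it was above the limit in all 3 labelled DKO tumor (119% to 146%) and at 2.84% and 2.39% in SKO BMT 2 and 3, where Wwox is not targeted. Leukocyte markers also separated libraries. Their mean log2(TPM + 1), where TPM is a transcript abundance scaled to the same total in each library, was 6.25 to 8.47 in control BM of set 1 and 0.52 to 6.34 in DKO tumor, and 8.64 to 8.88 in control BM of set 2 against 0.29 to 5.76 over its knockout groups. Endothelial markers were low, with 10 genes summing to 22.0 to 84.0 TPM over the set 1 libraries and 6.8 to 82.3 TPM over those of set 2. The 6 epithelial markers summed to at most 3.6 TPM in any library, whereas 10 mesenchymal stromal markers summed to at least 296.6 TPM and 9 osteoblast markers to at least 508.5 TPM in every library.

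The members differed widely in level. In TPM, which corrects for transcript length, the medians over the 37 libraries were 115 for Lamb2, 93.8 for Hspg2, 90.0 for Nid1, 48.1 for Lamc1, 47.1 for Lamb1, 29.8 for Nid2 and 25.9 for Lama4. They were 8.002 for Agrn, 2.21 for Lama5 and 1.54 for Lama2. Lamb2 was the highest member in 18 libraries, Hspg2 in 9, Nid1 in 8, and Nid2 and Lamc1 in 1 each. Within each class one chain led: Lamb2 was above Lamb1 in 35 of 37 libraries, Nid1 above Nid2 in 33, and Lama4 above every other alpha chain in 36. Lama4 made up 30.5% to 95.0% of the summed TPM of the 5 alpha chains, with a median of 78.9%. Lama2, the alpha chain of muscle and Schwann cell basement membranes, reached 1 TPM in 22 libraries.

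The stretch before the transcription start is shown for the member that was highest in more libraries than any other (Lamb2), for the nidogen of higher level (Nid1) and for the genes called lower in DKO yBM (Lama5 and Hspg2), to set their make-up side by side. Each line gives the 250 bases before the start from RefSeq on GRCm38.p6, 5′ to 3′ on the gene's strand, with capitals marking GGGCGG or its reverse complement CCGCCC.
Nid1, chr13:13437352-13437601, plus strand: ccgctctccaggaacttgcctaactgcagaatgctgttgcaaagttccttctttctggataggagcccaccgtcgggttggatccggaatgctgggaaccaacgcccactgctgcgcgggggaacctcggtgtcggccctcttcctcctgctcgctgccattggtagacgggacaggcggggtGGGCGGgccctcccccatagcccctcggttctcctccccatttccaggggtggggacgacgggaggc
Lama5, chr2:180225860-180226109, minus strand: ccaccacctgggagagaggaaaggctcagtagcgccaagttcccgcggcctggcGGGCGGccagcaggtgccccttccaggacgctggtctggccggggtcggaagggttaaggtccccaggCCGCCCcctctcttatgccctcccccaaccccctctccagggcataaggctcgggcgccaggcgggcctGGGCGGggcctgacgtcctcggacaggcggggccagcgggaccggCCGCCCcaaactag
Lamb2, chr9:108479612-108479861, plus strand: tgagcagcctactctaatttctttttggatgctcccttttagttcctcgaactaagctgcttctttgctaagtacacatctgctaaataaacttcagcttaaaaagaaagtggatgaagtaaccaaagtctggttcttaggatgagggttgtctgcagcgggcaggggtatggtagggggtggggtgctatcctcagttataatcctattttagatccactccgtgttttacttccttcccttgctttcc
Hspg2, chr4:137468553-137468802, plus strand: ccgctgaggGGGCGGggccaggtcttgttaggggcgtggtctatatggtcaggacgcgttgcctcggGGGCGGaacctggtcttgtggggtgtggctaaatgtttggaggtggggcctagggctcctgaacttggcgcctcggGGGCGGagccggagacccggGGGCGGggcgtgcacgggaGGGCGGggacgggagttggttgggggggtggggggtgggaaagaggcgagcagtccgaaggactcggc
GGGCGG, the core of the GC box bound by Sp factors, was found on either strand 1 time before Nid1, 4 times before Lama5, 5 times before Hspg2 and 0 times before Lamb2, while 32.9% of 27025 mouse promoters of the same length hold at least 1 match. The Lamb2 stretch held 3 CpG sites and 43.6% G and C, against 19 and 72.4% for Lama5 and 20 and 70.0% for Hspg2. Medians over all promoters were 6 CpG sites and 52.0% G and C. CACGTG, the E-box bound by Myc, was in none of these windows and is in 6.05% of all promoters, which says only that these letters are absent here. A promoter was listed for 7 of the 10 members, and none was used for Nid2, Lama4 or Lamc1. Of the members not shown, GGGCGG was found 2 times before Lamb1 and 0 times before Lama2. It was found 12 and 2 times before the 2 starts listed for Agrn. None of these members was among those called lower in set 1. A link between these letters and the calls was not tested.

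Set against control BM, members were called lower in set 1 and none was called in set 2 (limma on log2(TPM + 1), Benjamini-Hochberg adjusted p under 0.05). In set 1, DKO yBM had 2 members called lower (Lama5 and Hspg2), where 7.81% of all genes were called and 6.14% as lower. DKO BMT had 2 (Nid2 and Lama5), where 2.35% were called and 1.4% as lower, and DKO tumor had 1 (Nid2), where 3.39% were called and 2.21% as lower. No member was called higher in these comparisons. The 3 comparisons of set 1 share the control libraries, as do the 6 of set 2. In bulk RNA, fewer cells of a type and less RNA per cell cannot be told apart.

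**Figure D1:**
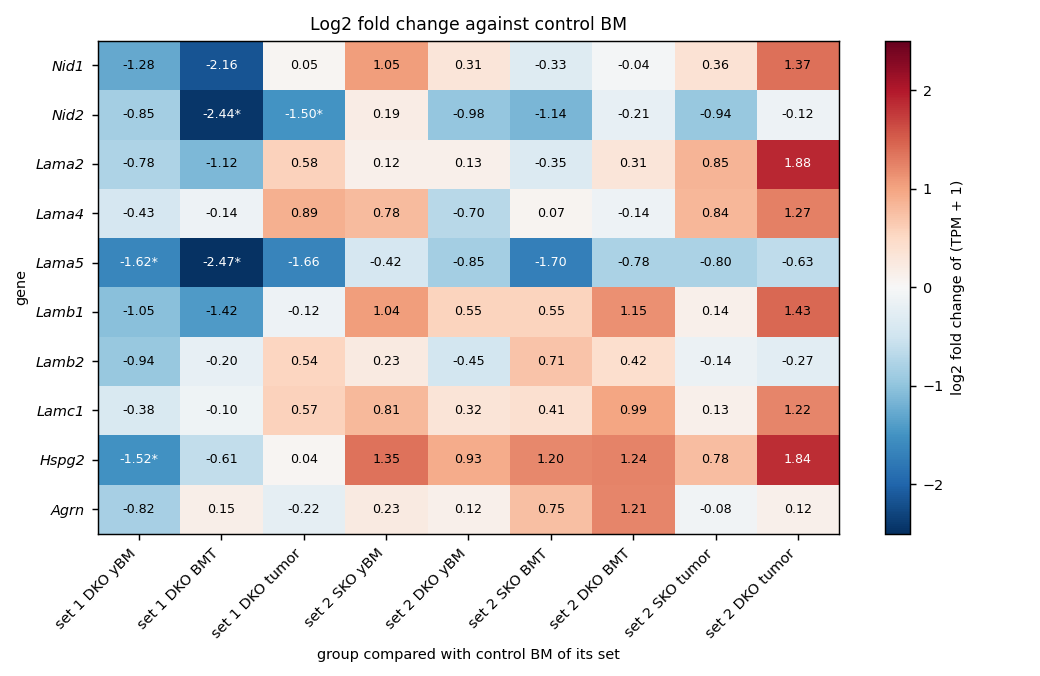
Log2 fold change of each member (rows) against control BM of its set, for 3 groups of set 1 and 6 groups of set 2 (columns), from limma on log2(TPM + 1). Asterisks mark the 5 values called at an adjusted p under 0.05, all below 0 and all in set 1.

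Nid2, one of the 2 nidogens, gave the lowest adjusted p among the members. The study itself names Nid2 as downregulated in DKO BMT and tumor cells against control BM, in groups of the sizes of set 1. The values below are therefore not independent of that result. Nid2 was at 79.3, 125, 55.3 and 62.1 TPM in control BM of set 1 and at 12.5, 15.9 and 11.8 TPM in DKO BMT. All 3 BMT libraries were below all 4 control libraries, by a wide gap. The log2 fold change was −2.44 ± 0.37 (SE, adjusted p = 0.00706, limma), and the call was made again in 17 of 17 alternative settings (adjusted p = 0.00386 to 0.0473, limma). All of these settings reuse the libraries of set 1. In DKO tumor Nid2 was at 41.1, 23.4 and 18.9 TPM, also below every control library. Its log2 fold change of −1.50 ± 0.37 passed the test (adjusted p = 0.0442, limma). This call was lost without tumor 2 or 3 or any 1 control library, with adjusted p between 0.0521 and 0.196 from limma (without control 1 and without tumor 3), and with leukocyte level as a covariate (adjusted p = 0.234, limma). In this comparison 11 of 16 leukocyte markers were lower, and their summed level was 12.7 to 3961 TPM in tumor libraries and 2887 to 15765 TPM in control BM. Their part in the Nid2 difference beyond that covariate fit was not tested.

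In DKO yBM the 6 libraries had Nid2 between 24.5 and 68.9 TPM with a median of 43.5 TPM, overlapping both control BM and tumor. The group means of Nid2 in set 1 ran from control BM (80.4 ± 31.3 TPM, SD, n = 4) over DKO yBM (44.8 ± 17.2, n = 6) and DKO tumor (27.8 ± 11.7, n = 3) to DKO BMT (13.4 ± 2.19, n = 3). Control BM and DKO yBM did not differ beyond the test's threshold (log2 fold change −0.85 ± 0.32, adjusted p = 0.102, limma), nor did DKO tumor and DKO BMT, although their libraries did not overlap (0.94 ± 0.40, adjusted p = 0.32, limma). DKO yBM and DKO tumor overlapped and were not tested against each other here. In set 2 the control BM libraries had 4.10, 68.1 and 85.0 TPM of Nid2. The control library at 4.10 TPM was the one with the largest mitochondrial share, 32.5% of its TPM. The 18 knockout libraries had Nid2 from 3.71 TPM in a DKO BMT library to 88.7 TPM in another of the same group. The fall seen in set 1 was not called in the like-named groups of set 2. There the log2 fold change of Nid2 against control BM was −0.214 ± 1.12 in DKO BMT (adjusted p = 0.933, limma). In DKO tumor it was −0.125 ± 1.12 (adjusted p = 0.961, limma). Over the 6 knockout groups it ran from −1.14 in SKO BMT to 0.187 in SKO yBM.

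Nid1, the other nidogen, was at 144, 276, 63.0 and 94.3 TPM in control BM of set 1, and at 8.44, 47.6 and 47.2 TPM in DKO BMT. Its BMT libraries were all below control BM, yet a log2 fold change of −2.16 ± 0.71 missed the threshold (adjusted p = 0.102, limma). Besides Nid2 and Lama5, Nid1 and Lamb1 were thus the members whose BMT libraries all lay below control BM, 4 of 10, where 9.64% of all genes did so. The DKO tumor libraries had 90.0, 314 and 75.6 TPM of Nid1, so the highest exceeded every control library while the others lay within their range. In DKO yBM Nid1 ran from 28.1 to 120 TPM with a median of 38.0 TPM. In set 2 Nid1 was at 56.2, 74.2 and 68.4 TPM in control BM, at 115, 127 and 177 TPM in SKO yBM and at 144, 207 and 170 TPM in DKO tumor. Both knockout groups lay above control BM, and neither difference passed the test, with log2 fold changes of 1.05 ± 0.88 (adjusted p = 0.445, limma) and 1.37 ± 0.88 (adjusted p = 0.313, limma).

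**Figure D2:**
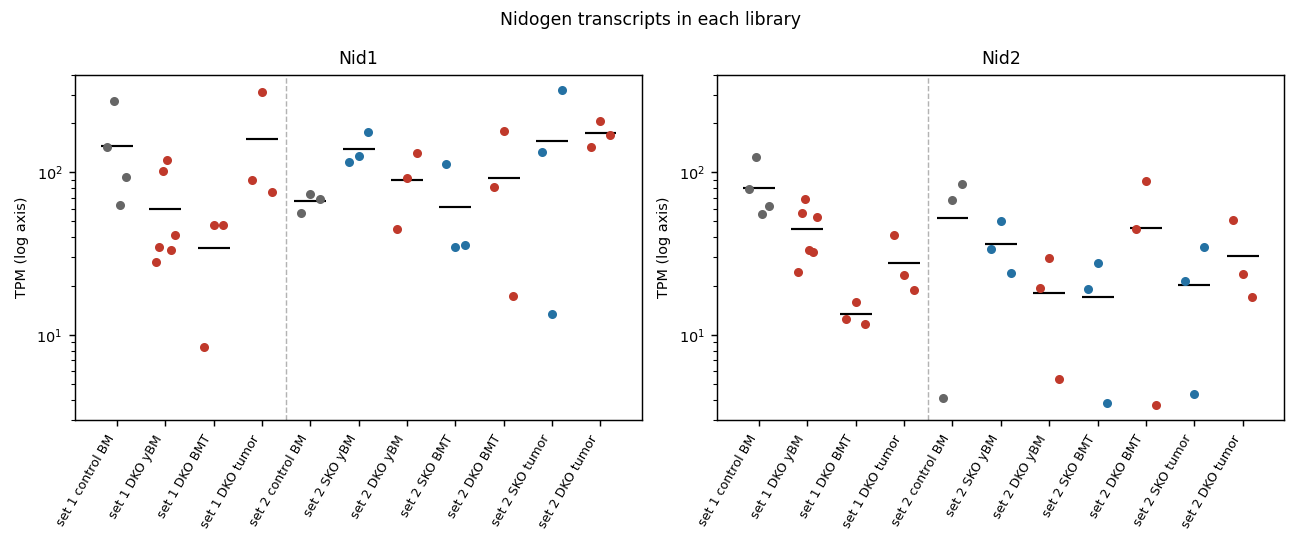
TPM of Nid1 (left) and Nid2 (right) on a log axis in each library (points) by group, with the group mean as a bar, grey for control BM, blue for SKO and red for DKO; the dashed line separates set 1 from set 2. The 3 set 1 DKO BMT libraries have Nid2 between 11.8 and 15.9 TPM, below the 4 control libraries, which start at 55.3 TPM.

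Lama5, an alpha chain of endothelial and many epithelial basement membranes, was the laminin chain called in set 1. It was at 11.6, 27.0, 2.21 and 5.92 TPM in control BM. The 6 DKO yBM libraries ran from 1.22 to 3.74 TPM with a median of 2.02 TPM, and control 3 lay inside that range. The log2 fold change was −1.62 ± 0.46 (adjusted p = 0.0438, limma). The DKO BMT libraries had 0.198, 0.784 and 1.27 TPM of Lama5, all below control BM, with a log2 fold change of −2.47 ± 0.54 (adjusted p = 0.0338, limma). In DKO tumor Lama5 was at 2.27, 2.19 and 1.56 TPM and missed the threshold (−1.66 ± 0.54, adjusted p = 0.0891, limma). The yBM call held without yBM 2 (adjusted p = 0.0438, limma) or control 3 (adjusted p = 0.0166, limma) and was lost without any other library, at most to an adjusted p of 0.117 (limma) without control 2. Over all alternatives it was lost in 14 of 19, with adjusted p up to 0.507 (limma) without the 5 yBM libraries whose Wwox went against the label, and 0.173 with the replicate block. The BMT call was lost without BMT 1, 2 or 3 or control 1 or 4, with adjusted p from 0.061 to 0.091 (limma), and held without control 2 or 3. It was lost in 10 of 17 alternatives in all, with adjusted p up to 0.241 (limma) without BMT 1 and the other libraries whose Wwox went against the label, and 0.083 with the replicate block. In set 2 Lama5 was at 1.59, 9.77 and 5.70 TPM in control BM and at 2.54, 0.201 and 0.277 TPM in SKO BMT, the lowest group there, with overlap (log2 fold change −1.70 ± 0.70, adjusted p = 0.112, limma).

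Lama4 and Lama2, the other alpha chains studied, were not called in any comparison. Lama4, the main alpha chain of stromal and vascular cells, was at 17.2 to 52.4 TPM in control BM of set 1, at 11.6 to 47.5 TPM in DKO yBM, 20.4 to 33.8 TPM in DKO BMT and 28.4 to 81.7 TPM in DKO tumor. All 3 knockout groups overlapped control BM. Lama2 in set 2 was at 1.56, 1.23 and 0.934 TPM in control BM and at 7.79, 7.52 and 6.30 TPM in DKO tumor, without overlap. The log2 fold change, 1.88 ± 0.78, missed the threshold (adjusted p = 0.11, limma). It passed when the fit held only those 2 groups (adjusted p = 0.00208, limma) and with quantile normalization (adjusted p = 0.0484, limma). With leukocyte level as a covariate the log2 fold change moved to 6.02 (adjusted p = 0.0105, limma), in a set where that level separates control BM from this group. Other groups of set 2 held single libraries as high, with 12.6 TPM in SKO tumor 3 and 12.3 TPM in DKO BMT 2. In set 1 the highest Lama2 was 14.0 TPM in DKO tumor 2, and the 3 DKO BMT libraries were at 0.442, 0.585 and 0.659 TPM.

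No beta or gamma chain was called in set 1 or set 2. Lamb1, the beta chain of early and vascular laminins, was at 89.9, 122, 41.3 and 62.9 TPM in control BM of set 1 and at 18.3, 32.2 and 32.2 TPM in DKO BMT, all below control BM without a call (log2 fold change −1.42 ± 0.49, adjusted p = 0.122, limma). In set 2 Lamb1 was at 17.3, 34.7 and 39.4 TPM in control BM and 44.4 to 81.0 TPM in DKO BMT, which did not overlap and were not called apart (1.15 ± 0.67, adjusted p = 0.287, limma). Lamb2, the beta chain of muscle and kidney laminins, ran from 66.6 to 310 TPM in control BM of set 1, and each knockout group of either set overlapped its control BM. Lamc1, the gamma chain shared by most laminins, was at 48.1 to 124 TPM in control BM of set 1 and overlapped it in all 3 knockout groups. In set 2 Lamc1 was at 24.1 to 30.9 TPM in control BM and at 45.8 to 55.8 TPM in SKO yBM, above every control library, with a log2 fold change of 0.81 ± 0.71 (adjusted p = 0.468, limma).

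Hspg2, the perlecan core protein, was at 148, 150, 68.9 and 82.6 TPM in control BM of set 1, and the 6 DKO yBM libraries ran from 16.6 to 90.2 TPM with a median of 27.9 TPM. Of these, yBM 3 and 4 reached 85.5 and 90.2 TPM, within the control range, while the other 4 were at or under 29.8 TPM. The log2 fold change was −1.52 ± 0.45 (adjusted p = 0.0497, limma). This call held without yBM 3 (adjusted p = 0.0373, limma) or yBM 4 (adjusted p = 0.028, limma), was lost without any other single library, and was at most 0.127 as an adjusted p (limma) without control 2. Libraries yBM 3 and 4 also had the lowest leukocyte levels of their group, with mean log2(TPM + 1) of 4.403 and 6.25 against 6.98 to 8.11 in the other 4. Summed over the 10 members they held 582 and 601 TPM, the other 4 held 181 to 274 TPM. The call was kept with leukocyte level as a covariate (−1.61, adjusted p = 0.0293, limma). Over all alternatives it was lost in 14 of 19, with adjusted p up to 0.412 (limma) without the libraries whose Wwox went against the label, and 0.271 with the replicate block. Agrn, the proteoglycan that clusters acetylcholine receptors at the neuromuscular junction, was at 7.53 to 15.7 TPM in control BM of set 1, and every knockout group of both sets overlapped its control.

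**Figure D3:**
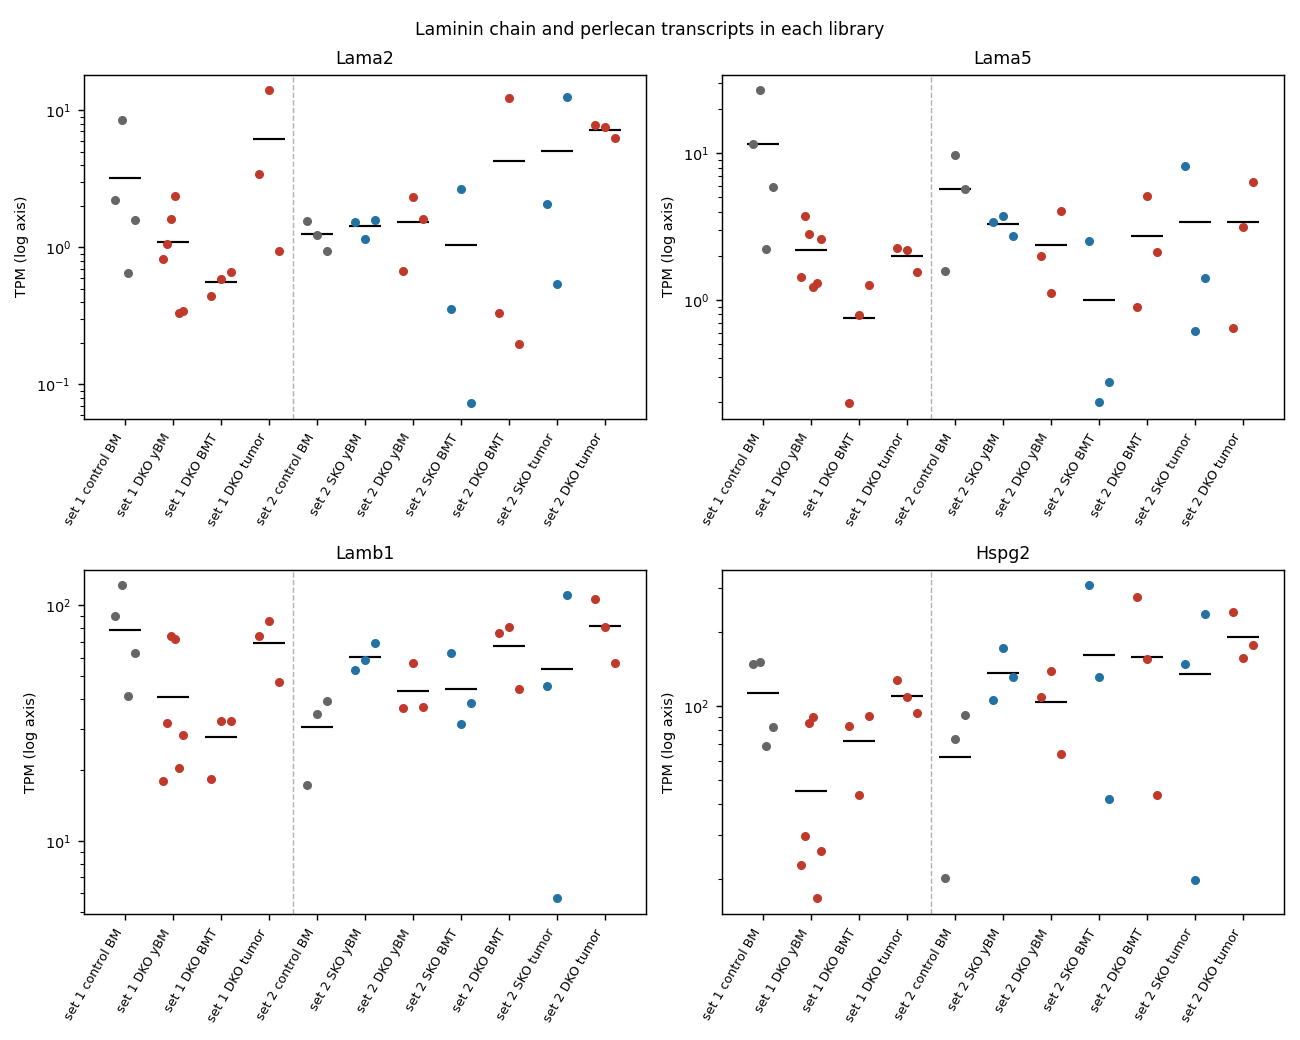
TPM of Lama2, Lama5, Lamb1 and Hspg2 on log axes in each library (points) by group, with the group mean as a bar, grey for control BM, blue for SKO and red for DKO; the dashed line separates set 1 from set 2. Hspg2 in set 1 DKO yBM falls into 2 libraries at 85.5 and 90.2 TPM and 4 at or under 29.8 TPM.

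Over all members, the median log2 fold change in set 1 was −0.89 in DKO yBM, where the median of all 14404 genes tested was −0.23. It was −0.87 in DKO BMT (all genes −0.06) and 0.05 in DKO tumor (all genes −0.09). All 10 members had fold changes below 0 in DKO yBM, 9 in DKO BMT and 4 in DKO tumor. At an unadjusted p under 0.05 there were 6 of 10 members in DKO yBM, 4 in DKO BMT and 2 in DKO tumor, where 27.3%, 19.9% and 22.6% of all genes reached that limit. Other cell markers moved in the same comparisons. In DKO BMT 2 of 10 mesenchymal stromal markers were lower, with summed levels of 438.6 to 894.3 TPM against 1852 to 3781 TPM in control BM. Of the 8 smooth muscle and pericyte markers tested 2 were lower there, with summed levels of 1047 to 1437 TPM against 2022 to 13249 TPM. In DKO yBM 1 marker of each of these lists was lower. Of all genes 1.4% were called lower in DKO BMT and 6.14% in DKO yBM. The 9 osteoblast markers went the other way, with median log2 fold changes of 1.76 in DKO BMT and 0.41 in DKO yBM. None of them was called. The part of these markers in the members' values was not tested.

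In set 2 no member was called against control BM in any of 6 comparisons (limma), at a background of 13.5% of 14458 genes called in SKO yBM, 19.5% in DKO yBM, 13.4% in SKO BMT, 12% in DKO BMT, 11.6% in SKO tumor and 17.2% in DKO tumor. At an unadjusted p under 0.05 there were 3 members in DKO tumor (Lama2, Lamb1 and Hspg2, all higher), 1 in SKO BMT (Lama5, lower) and 0 in the other 4. Of all genes 30.6% reached that limit in DKO tumor, 29.1% in SKO BMT and 23.9% to 32.5% in the others, so no count of members was above the background. In DKO tumor 6 members lay wholly above control BM (Nid1, Lama2, Lama4, Lamb1, Lamc1 and Hspg2), where 21.8% of all genes did so, and the median log2 fold change of the 10 was 1.24 (all genes 0.11). Hspg2 there was at 240, 157 and 176 TPM against 20.0, 73.7 and 92.0 TPM in control BM (1.84 ± 0.85, adjusted p = 0.149, limma). In SKO yBM 4 members lay wholly above control BM (Nid1, Lamb1, Lamc1 and Hspg2), where 30.9% of all genes did so, and in DKO BMT 1 did (Lamb1), where 15.9% of all genes did so. The standard errors of the members in set 2 were 0.60 to 1.12 on the log2 scale. A fit restricted to the 2 groups compared called 5 members in DKO tumor (Nid1, Lama2, Lamb1, Lamc1 and Hspg2) and 2 in SKO yBM (Nid1 and Lamc1), all higher, where that fit called 21.8% and 27.7% of all genes tested in it. The libraries labelled DKO tumor all had Wwox above the limit, so no value was computed without them. All 16 leukocyte markers were lower in 5 of these comparisons and 15 of 16 in SKO BMT, with summed levels of 22186 to 27166 TPM in control BM and 6.4 to 3155 TPM over the knockout groups. Tyrobp was at 0 in all SKO yBM and DKO yBM libraries. Knockout and leukocyte content cannot be told apart in set 2.

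Members of 1 class were next set against each other within each library, as log2((TPM + 1)/(TPM + 1)). For Lama4 to Lama5 the ratio was 1.26, 0.93, 2.82 and 1.40 in control BM of set 1, 4.86, 3.73 and 3.23 in DKO BMT, and 4.66, 4.27 and 3.53 in DKO tumor. Both groups lay wholly above control BM, by 2.34 and 2.55 on the log2 scale (exact permutation test, two-sided, p = 0.0571 each, the smallest that 35 splits allow). In DKO yBM the ratio averaged 2.80 ± 0.94 (SD, n = 6) against 1.60 ± 0.84 (n = 4) in control BM, with overlap (p = 0.0571 from 210 splits, two-sided exact permutation test). With 1 library left out the difference ran from 0.87 to 1.60 and p from 0.0238 to 0.143 (exact permutation tests), the lowest p without control 3, the control library of highest ratio. Over the 27 ratios tested, every one of these had an adjusted p of 0.309 (exact permutation tests). The Lamb1 to Lamb2 ratio in set 2 was −1.85 ± 0.15 in control BM (SD, n = 3) and lay wholly above it in SKO yBM (−1.05 ± 0.38), DKO yBM (−0.85 ± 0.49), DKO BMT (−1.12 ± 0.32) and DKO tumor (−0.16 ± 0.43). Each gave p = 0.1, the smallest that an exact permutation test of 3 against 3 allows. The largest of these differences was 1.70 on the log2 scale, in DKO tumor, the group in which Lamb2 made up 47.3% to 61.1% of both beta chains. In set 1 the same ratio overlapped control BM (−0.67 ± 0.47) in all 3 groups, with differences of −0.11 in DKO yBM, −1.22 in DKO BMT and −0.66 in DKO tumor. The Nid1 to Nid2 ratio overlapped control BM in all 9 comparisons and was highest in DKO tumor of set 2, at 2.60 ± 0.97.

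**Figure D4:**
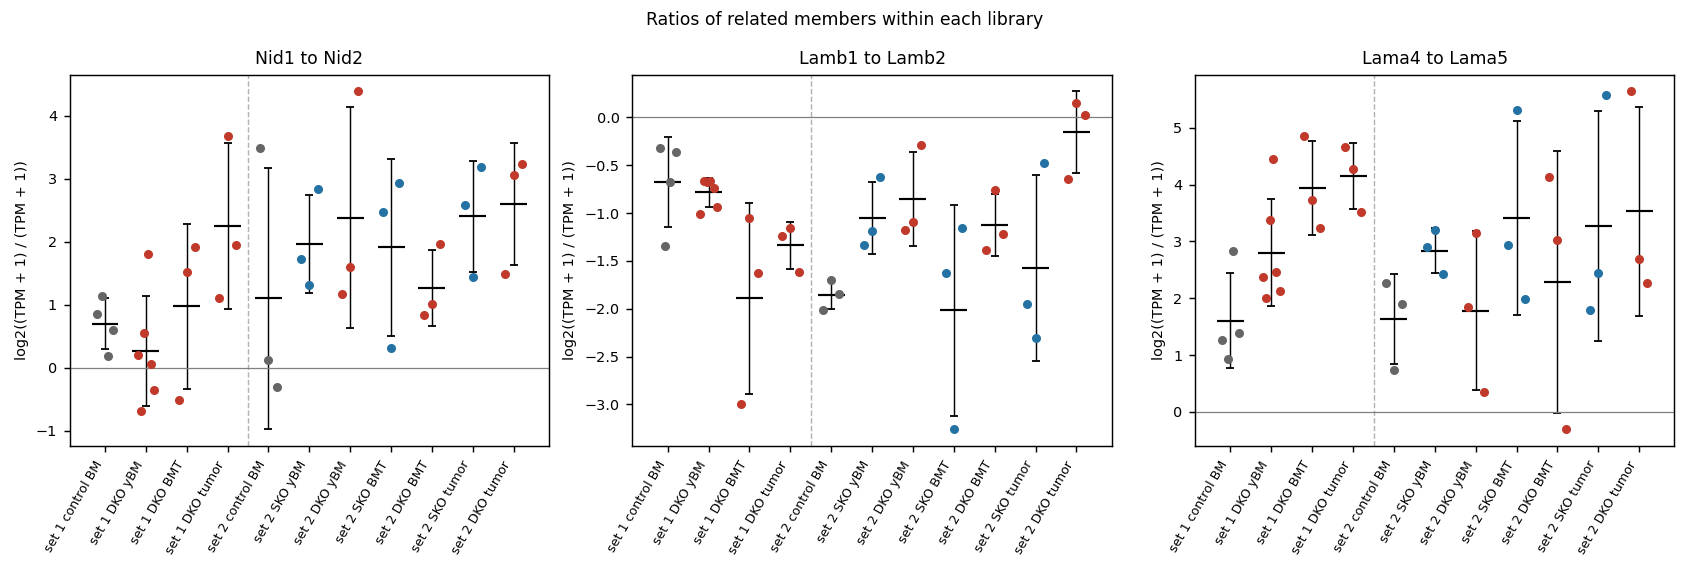
Log2 ratios of Nid1 to Nid2, Lamb1 to Lamb2 and Lama4 to Lama5 in each library (points) by group, with the group mean as a bar and the SD as whiskers, grey for control BM, blue for SKO and red for DKO; the dashed line separates set 1 from set 2. In set 1 the Lama4 to Lama5 ratio of the DKO BMT and DKO tumor libraries starts at 3.23, above the highest control library at 2.82.

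Stage, genotype and age were compared directly. DKO tumor against DKO BMT in set 1 gave no member called (limma, 0.257% of all genes called), with 4 members at an unadjusted p under 0.05, a limit reached by 12.9% of all genes. In it 7 members lay wholly higher in tumor (Nid1, Nid2, Lama2, Lama5, Lamb1, Lamc1 and Hspg2), where 5.32% of all genes did so. Nid1 was at 160 ± 134 TPM in tumor and 34.4 ± 22.5 TPM in BMT (SD, n = 3 each), with a log2 fold change of 2.21 ± 0.76 (adjusted p = 0.202, limma). By library number, tumor was above BMT in all 3 pairs for 9 of 10 members (all but Agrn). For the 7 members without overlap any pairing gives this, so the count adds nothing for them. The share of all genes that were higher in all 3 pairs was not computed. The sources also differ on whether these libraries came from the same mice. With the replicate number as a block 0 members and 0 of all genes were called. Leukocyte markers had a median log2 fold change of −5.00 over 16 markers, none called. Their mean log2(TPM + 1) was 0.52 to 6.34 in DKO tumor and 7.01 to 7.82 in DKO BMT, without overlap. Stage and leukocyte content cannot be told apart in this comparison. In set 2 no member was called between tumor and BMT in SKO or DKO cells (limma, 0.083% of all genes called in each, 0 members at an unadjusted p under 0.05). DKO against SKO gave no member called in yBM (0.0207% of all genes), BMT (0%) or tumor (0%), with 0 members at an unadjusted p under 0.05 (limma). By transcript, the tumor and BMT contrasts do not set Wwox-deleted against Wwox-intact libraries, since all 3 DKO tumor libraries had Wwox at 119% to 146% of control BM and SKO BMT 2 and 3 had it at 2.84% and 2.39%. Lama4 was the 1 member without overlap, at 5.46, 9.76 and 17.7 TPM in DKO yBM and 18.9, 32.0 and 42.3 TPM in SKO yBM, where 11.2% of all genes lay wholly lower (−1.48 ± 1.02, adjusted p = 1, limma). The step from BMT or yBM to tumor was not found to differ between DKO and SKO for any member, by the interaction test over these labels (adjusted p = 0.869 to 1, limma). Within DKO yBM of set 1, no member was called between 4 and 1.5 months (limma, 0.00694% of all genes called, 0 members at an unadjusted p under 0.05), and all 10 fold changes lay between −0.42 and 0.24 on the log2 scale.

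Other genes of the basement membrane were read from lists drawn up by function. Among the other laminin chains, Lama3, the alpha chain of the epithelial laminin that anchors skin, was lower in DKO yBM of set 2 (−1.39 ± 0.18, adjusted p = 1.81e-05, limma). Lama3 was at 1.73 ± 0.44 TPM in control BM of set 2 and 0.0287 ± 0.0097 TPM in DKO yBM (SD, n = 3 each). Its control level was thus itself near the filter. Mean Lama3 was 0.0287 to 0.0940 TPM over the 6 knockout groups of set 2. The low level was therefore not particular to DKO yBM. Of the 6 collagens tested, Col4a1, the main collagen IV chain, fell in DKO yBM of set 1 from 425 ± 306 TPM (SD, n = 4) to 72.6 ± 34.9 TPM (n = 6), by 2.41 on the log2 scale (adjusted p = 0.0422, limma). Mean Col4a1 was 52.6 TPM in DKO BMT and 349 TPM in DKO tumor of set 1. Over the 6 knockout groups of set 2 it was 34.4 to 144 TPM, against 198 TPM in control BM. The low level was thus not particular to DKO yBM. Col7a1, which forms anchoring fibrils, was higher in DKO BMT of set 2 (2.36 ± 0.59, adjusted p = 0.0128, limma). Its mean was 3.94 to 15.3 TPM over the 6 knockout groups of set 2, with 11.7 in SKO yBM and 11.3 in DKO tumor. Control BM was at 2.17 TPM, so the rise was not particular to DKO BMT. Among 13 other basement membrane proteins tested, Smoc1 was lower in DKO yBM of set 1 (−1.68 ± 0.47, adjusted p = 0.0423, limma). In set 2 Ntn4, a netrin that binds laminin, was lower in SKO yBM (−2.44 ± 0.68, adjusted p = 0.0229, limma). Matn2 was higher in SKO BMT (2.41 ± 0.69, adjusted p = 0.0278, limma). Over the 6 knockout groups of set 2, mean Matn2 was 8.40 to 23.2 TPM, against 2.57 TPM in control BM. Mean Ntn4 was 0.230 to 5.90 TPM over these groups, against 5.66 TPM in control BM. No more than 2 genes of either the collagen list or the list of other basement membrane proteins were called in any comparison against control BM. Of all genes 2.35% to 19.5% were called in these comparisons.

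Of 14 laminin and nidogen receptors tested in set 1, 2 were lower in DKO yBM (Bcam and Itga1), 1 in DKO BMT (Itga1) and 2 in DKO tumor (Bcam and Itga6), none was higher, and the shares of all genes called lower were those given above for the members. Against control BM of set 2, 11.6% to 19.5% of all genes were called, in either direction. There 1 or 2 receptors were lower in each comparison, and 1 was higher in SKO yBM, DKO yBM, SKO BMT and DKO BMT. That receptor was Itga3, a laminin integrin chain named here after its values were seen, at 2.85 ± 1.97 TPM in control BM and 44.9 ± 10.6 TPM in DKO yBM (SD, n = 3 each), with a log2 fold change of 3.70 ± 0.81 (adjusted p = 0.00362, limma). Bcam, a receptor that binds the Lama5 chain, was at 19.8 ± 5.45 TPM in control BM (SD, n = 4) and 4.26 ± 2.65 TPM in DKO yBM (n = 6), with a log2 fold change of −2.11 ± 0.43 (adjusted p = 0.0185, limma). Itga1, an integrin chain for collagen and laminin, was lower in DKO BMT (−2.11 ± 0.32, adjusted p = 0.007, limma). Itga6, the alpha chain of the main laminin integrins, was lower in SKO tumor of set 2 (−4.03 ± 0.58, adjusted p = 5.6e-05, limma), at 26.7 ± 4.46 TPM in control BM and 0.992 ± 1.49 TPM in tumor (SD, n = 3 each). Mean Itga6 was 0.992 to 3.30 TPM over the 6 knockout groups of set 2, so the low level was not particular to SKO tumor. Itga6 is also made by leukocytes, whose markers were lower in these groups, and their part was not tested. B4gat1, which acts in building the laminin-binding glycan of dystroglycan, was lower in DKO yBM of set 1 (−1.34 ± 0.28, adjusted p = 0.0188, limma). Of 18 genes of heparan sulfate synthesis and editing, 2 were lower in DKO yBM (Sulf2 and Hs6st2) and 1 in DKO BMT (Hs6st2) of set 1. In these comparisons 6.14% and 1.4% of all genes were called lower. In set 2, at the shares given for the receptors, 1 or 2 of the 18 were lower in each comparison with control BM. In SKO yBM, DKO yBM, SKO BMT and DKO tumor 1 was higher. The higher gene was Glce, an epimerase, in 3 of these and the sulfotransferase Hs3st1 in DKO yBM, both named after their values were seen. Between DKO tumor and DKO BMT of set 1, Hs6st2 was higher in tumor (2.28 ± 0.44, adjusted p = 0.0473, limma). The sulfatase Sulf2 was at 62.6 ± 22.1 TPM in control BM (SD, n = 4) and 13.6 ± 11.1 TPM in DKO yBM (n = 6), with a log2 fold change of −2.35 ± 0.45 (adjusted p = 0.0143, limma), and the sulfotransferase Hs6st2 was lower in DKO BMT (−3.04 ± 0.41, adjusted p = 0.00336, limma). The related sulfatase Sulf1 was lower in DKO yBM of set 2 (−4.06 ± 0.96, adjusted p = 0.0066, limma). Mean Sulf1 was 3.00 TPM there, 5.17 in SKO yBM and 3.32 in SKO BMT, against 58.7 TPM in control BM. It reached 48.4 TPM in DKO BMT of that set. Mean Sulf2 in set 1 was also 18.3 TPM in DKO BMT and 23.0 TPM in DKO tumor. Neither low level was thus particular to DKO yBM.

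Across libraries the members varied together in part. Over the 45 pairs of members, Pearson's r of log2(TPM + 1) had a median of 0.61 in the 16 libraries of set 1 (0.09 to 0.93) and 0.56 in the 21 of set 2 (−0.08 to 0.91). These points share groups, cell content and library scale, so the values are descriptions only. Among 13585 genes, the one most like Nid1 by the lower of its r in both sets was Ddah1 (0.83 and 0.85), and that most like Nid2 was Arxes2 (0.82 and 0.81). Lama2 was most like Tenm3 (0.96 and 0.86), Lama4 most like Col5a1 (0.86 and 0.86), and Lama5 most like Parm1 (0.84 and 0.77). Hspg2 was most like Col16a1 (0.90 and 0.92), a collagen that was also the second for Lama4 (0.88 and 0.85). Lamb1 was most like Hdac7 (0.90 and 0.88), Lamb2 most like Ttc28 (0.89 and 0.89), Lamc1 most like Zfp512b (0.92 and 0.89) and Agrn most like Zfat (0.86 and 0.86).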

How the data were processed

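Cells were lysed for poly-A RNA, and libraries were made with a strand-specific kit. The authors deposited TPM per gene, which per the labels and the study's methods came from salmon after trimming by Trim Galore (0.6.1 in the submitters' processing notes, an older version in the methods) and FastQC, and ran DESeq2 for comparisons of their own. TPM fixes the total of a library, so depth is unknown, no counting error can be given, and a gene that takes a large share lowers all others. The notes name mm39, whereas symbols and promoters come from GRCm38.p6 tables, which matched 48246 of 51123 identifiers. The 3 columns of set 2 control BM were matched to their group only.

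Here a gene was tested when 3 or more libraries of the set reached 1 TPM. limma 3.58.1 in R 4.3.3 was run on log2(TPM + 1) with a mean-variance trend, all groups of the set in 1 fit and no covariates, and genes with a Benjamini-Hochberg adjusted p under 0.05 were called. The pseudocount makes fold changes of low genes too small. Ratios were compared with exact permutation tests (scipy 1.17.1), and the code was tested on simulated data. Alternatives were a pseudocount of 0.1, no filter, median-ratio scaling, quantile normalization, the compared groups only, a replicate block and leaving out each library. A leukocyte covariate, TPM without 37 mitochondrial genes, and fits without libraries whose Wwox or Trp53 disagreed with the label were added after seeing the data. The members, lists and tests were chosen with earlier results of these data known. All members are described, and of each list up to 3 called genes with the smallest p are named. Some genes of these lists are not reported here.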

Additional observations from a re-analysis of the deposited data

Results flagged for a closer look

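Lamc1 in control BM of set 1 had 1 library at 124 TPM (123.571 TPM before rounding), far above the other 3, which ran from 48.1 to 58.9 TPM. It was flagged because the gap to its nearest neighbour took up most of the group's range. Of 26 groups of values screened in this way, 1 was flagged, and chance flags about 1 in 20. Lamc1 was not called in any comparison.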

How the results depend on the processing

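Depth is not known for TPM, and groups of 3 limit what can be called. In set 1, the count of members called against control BM was 2 in DKO yBM. It was 0 with a pseudocount of 0.1, without the filter, with the replicate block, with only the compared groups and without libraries whose Wwox went against the label, and 1 with median-ratio scaling or quantile normalization. In DKO BMT the count of 2 became 1 (Nid2) without the filter, with the block, with the compared groups only and without libraries whose Wwox or Trp53 went against the label. In DKO tumor the count of 1 became 0 without the filter, with the block, with the compared groups only and with the leukocyte covariate. Leaving out 1 library gave 0 to 1, 1 to 2 and 0 to 1 in these comparisons. In set 2, counts of 0 became 2 in SKO yBM (Nid1 and Lamc1) and 5 in DKO tumor (Lama2, Nid1, Lamc1, Lamb1 and Hspg2) with the compared groups only, 1 in DKO tumor (Lama2) with quantile normalization, and 1 in SKO tumor and 1 in DKO tumor (Lama2 in both) with the leukocyte covariate. The cause was not tested.

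The replicate block changed no other call. A shared number does not by itself show a shared mouse. For DKO tumor and DKO BMT of set 1 the sources differ on this. Their same-numbered libraries correlated at r = −0.091 to 0.285, which cannot settle it. Only for SKO BMT and DKO BMT did all pairs correlate over 0.1 (r = 0.29 to 0.38), and there the block and the fit without it both called 0 members. Control BM of set 2 carries no numbers, so the block covers only its knockout comparisons. Calls among all genes in set 1 were 1125 in DKO yBM, 339 in DKO BMT and 489 in DKO tumor. They were 20, 43 and 10 with the block, 2002, 56 and 24 with the compared groups only, 9, 46 and 271 without libraries whose Wwox went against the label, 151 to 948, 53 to 327 and 9 to 732 with 1 library left out, 135 (BMT) and 178 (tumor) without the filter, 642 (BMT) with median-ratio scaling, 716 (BMT) and 910 (tumor) with quantile normalization, 742 (tumor) with a pseudocount of 0.1 and 13 (tumor) with the leukocyte covariate. That covariate brought the calls in set 2 from between 1674 and 2819 to between 242 and 344, quantile normalization raised those in SKO yBM from 1958 to 3194, and the compared groups only gave 3603 there, 1013 in DKO BMT (1737) and 931 in SKO tumor (1674). In SKO BMT and DKO BMT of set 2, the calls went from 1931 to 2945 and from 1737 to 2686 with median-ratio scaling and to 3391 and 3099 with quantile normalization, in SKO tumor to 2694 with the latter, and in SKO BMT to 812 without libraries whose Wwox went against the label. The other large change was in DKO tumor against DKO BMT of set 1 (37 genes), where alternatives gave 0 to 403. The share of called genes that were higher moved from 21.4% to 62.2% (median-ratio scaling) and 65.8% (quantile normalization) in DKO yBM, from 40.7% to 60.1% and 62.2% in DKO BMT, and from 35% to 60% and 65.9% in DKO tumor of set 1, with no member changing direction in these comparisons. Members not called that changed direction with a scaling were, against control BM in set 2, Nid2, Lama2 and Lamb2 in SKO yBM, Lama4 in SKO BMT, Lamb2 and Agrn in SKO tumor and Agrn in DKO tumor. Between knockout groups of set 2 they were Lama2 and Agrn (DKO against SKO yBM), Lama5 and Agrn (DKO against SKO tumor), Lamb1 and Lamc1 (SKO tumor against BMT) and Nid2 (DKO tumor against BMT), and between the ages in set 1 Lamb1 and Lamb2.

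With 1 library left out, the Nid1 to Nid2 difference ranged from −0.74 to −0.24 in set 1 DKO yBM, from −0.19 to 1.03 in set 1 DKO BMT and from −0.53 to 1.37 in set 2 DKO BMT. The Lamb1 to Lamb2 difference ranged from −0.33 to 0.012 in set 1 DKO yBM, −0.59 to 0.46 in SKO BMT and −0.27 to 0.64 in SKO tumor. The Lama4 to Lama5 difference ranged from 0.87 to 1.60 in set 1 DKO yBM, −0.53 to 0.86 in set 2 DKO yBM and −0.28 to 1.94 in set 2 DKO BMT.

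A fit of set 2 DKO tumor without libraries whose Wwox went against the label was not run, since no library was left.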
